A study of Mus musculus with 7 samples.

Results

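Mss51 (ENSMUSG00000021815, also called Zmynd17) is the single gene described here, followed section by section along the tibialis anterior muscle of the mouse and set beside the genes whose profiles ran with it or against it. It is 1 of 53083 genes counted in all 7 muscles, and it was chosen by its counts along the section order, which had been seen to change in earlier results of these data. Its profile, and the genes selected on their likeness to it, are therefore described without a test. The study cut each muscle, the main muscle at the front of the lower leg, into serial cryosections and sequenced the RNA of every section under its own barcode. There were 3 DMD muscles, a group that carries the name of Duchenne muscular dystrophy, the lethal muscle-wasting disease caused by loss of dystrophin, and 2 each of the groups labelled WT and Ctr. In the file headers the columns of WT bear the name pax7, those of Ctr hDMD and those of DMD mdx, names that no label explains. Genotype, strain, age, sex and treatment are not given in the sources used here, nor whether each muscle came from an animal of its own, so that a p-value here speaks only of the spread among these 7 muscles.

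Mss51 is a MYND zinc-finger protein of mitochondria that is made mostly in skeletal muscle and most strongly in fast fibres. Its transcript falls when myostatin, the secreted brake on muscle growth, is blocked, and mice without the gene have a more oxidative metabolism. The yeast protein of the same name starts translation of the mitochondrial transcript for a core subunit of cytochrome c oxidase, the last complex of the respiratory chain. Skeletal muscle mixes fast glycolytic fibres, which contract quickly and burn sugar, with slower oxidative fibres, which are rich in mitochondria and burn fat, and the mix changes from place to place inside a muscle.

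Mss51 lies on the minus strand of chromosome 14 at 14:20482867-20496901 (GRCm38), between Anxa7 and Ppp3cb on the same strand, which end and start 2734 and 2463 bases away, and no other gene of the tables overlaps it. GENCODE gives 1 transcript of 1826 bases in 7 exons, and the 7 exons in the file headers are the same. Exon 1 (20496635-20496901) holds only 5′ untranslated sequence, the coding part runs from exon 2 to exon 7 over 446 codons, and the 3′ untranslated end is in exon 7. The 250 bases before the RefSeq start (GRCm38.p6, chr14:20496902-20497151, minus strand, printed 5′ to 3′ along the gene) are shown because the gene's transcript is the quantity followed below. Capitals mark GTCTAGAC, a palindrome that is its own reverse complement.

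Mss51 promoter: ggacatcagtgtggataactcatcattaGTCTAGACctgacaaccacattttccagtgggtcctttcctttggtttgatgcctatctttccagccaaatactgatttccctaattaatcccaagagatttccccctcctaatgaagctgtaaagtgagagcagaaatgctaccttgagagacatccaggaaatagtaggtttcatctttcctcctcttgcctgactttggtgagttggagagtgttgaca

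GTCTAGAC holds the core bound by SMAD proteins, the transcription factors that act below myostatin and TGF-beta receptors. It was chosen after the sequence was seen and lies at -222 to -215 from the start. On either strand it occurred in 70 of 32851 RefSeq windows of 300 bases (0.213%). The E-box CANNTG, the motif of myogenic factors such as MyoD, was in 72.3% of windows and not in that of Mss51, and the MEF2 motif, searched by its usual consensus, was in 3.19% and not in that of Mss51. Among the 12 genes named below for profiles most like that of Mss51, 9 had a window: none held GTCTAGAC, 6 held an E-box and 1, Mylk4, held the MEF2 motif. These matches describe letters in a window and say nothing of binding.

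The 7 tables held 525 sections, and the 422 with at least 1000 counts and at least 20% of their muscle's median were kept, 50 to 67 per muscle. Kept totals per muscle were 11181994 to 41407203 counts, and Mss51 had 257 to 1676 counts per muscle with a median of 8 and a highest count of 57 per section. Sections are ordered by barcode number. The labels do not say whether that number follows the cutting order, which every profile here assumes. Nor do they say which end of the muscle came first, so the ends are called first and last. Sections were left out along the way, so stretches of equal section number need not be equally long. Mouse Dmd, the dystrophin gene, did not separate the groups, at 8.81 to 13.1 CPM (a gene's count scaled to a common library total) in WT, 9.98 to 15.3 CPM in Ctr and 9.70 to 19.8 CPM in DMD (edgeR quasi-likelihood test, DMD against Ctr log2 difference -0.18 ± 0.29, adjusted p = 0.711). A human DMD sequence counted in the Ctr and DMD tables was present in both, at 19.5 and 24.8 CPM in Ctr and 14.5 to 22.7 CPM in DMD. Neither count shows whether dystrophin protein was made. Myh4, the myosin of type 2B fast fibres, averaged 11102 CPM over the muscles. The WT tables were counted with another annotation than the rest, so for WT the group and the annotation cannot be told apart.

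Mss51 was highest at the last end in all 4 WT and Ctr muscles and lowest in the middle stretch of 3 of them (in WT replicate 2 the second stretch was as low), and the same shape was present but shallow in the 3 DMD muscles. The kept sections were cut into 5 stretches of nearly equal number, and Mss51 counts summed over a stretch were divided by its total and given as CPM. From the first to the last stretch, WT replicate 1 read 21.0, 13.4, 11.96, 27.3 and 69.7 CPM. WT replicate 2 read 26.3, 12.6, 12.8, 34.8 and 74.9 CPM. Both WT muscles thus had a modest level at the first end, a trough in the second and middle stretches and a steep rise after it. In WT the last stretch held 29.0% and 27.3% of all Mss51 counts against 9.62% and 8.84% of all counts.

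Ctr replicate 1 read 20.6, 12.9, 6.37, 29.5 and 85.01 CPM. Ctr replicate 2 read 19.5, 12.3, 3.44, 6.92 and 56.4 CPM. The trough was deeper in Ctr than in WT and rested on few counts, 17 in the middle stretch of Ctr replicate 1 (95% Poisson interval 3.71 to 10.2 CPM) and 9 in that of Ctr replicate 2 (1.57 to 6.53 CPM). The last stretch held 54.9% and 65.4% of all Mss51 counts of these muscles against 19.6% and 24.4% of all counts.

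DMD replicate 1 read 52.3, 43.4, 26.5, 31.0 and 56.6 CPM. DMD replicate 2 read 54.0, 29.4, 24.9, 29.9 and 54.8 CPM, and DMD replicate 3 read 33.5, 30.02, 24.6, 35.0 and 56.0 CPM. In DMD the last stretch held 22.1%, 24.7% and 20.03% of the Mss51 counts against 15.8%, 17.0% and 12.01% of all counts. The WT shares of the Mss51 counts lay nearer to DMD than to Ctr. Such a share also follows how many of all counts fell in the last stretch, 9.62% and 8.84% in WT against 19.6% and 24.4% in Ctr. The groups are therefore not ranked by it. In DMD replicates 1 and 2 the first end stood as high as the last. Intervals cover counting error only, and fewer cells of a type cannot be told apart from less RNA per cell.

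**Figure D1:**
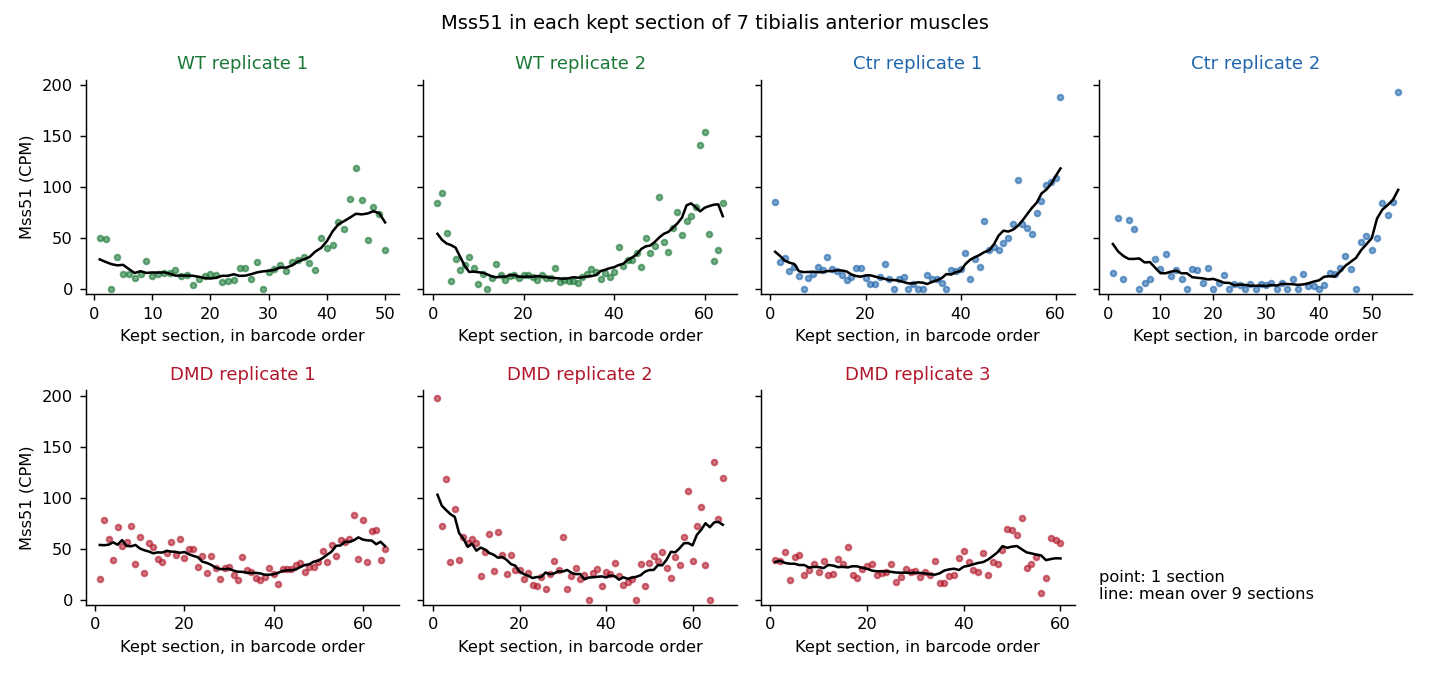
Mss51 in CPM (vertical axis) against the order of the kept sections (horizontal axis) in each muscle. Points are sections and the line is a mean over 9 sections. The WT and Ctr profiles fall to a trough and climb at the last end to single sections of 119 to 193 CPM. Those sections rest on 11 to 23 counts. The DMD profiles are shallow, with a first section of 197 CPM in DMD replicate 2 that rests on 6 counts.

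**Figure D2:**
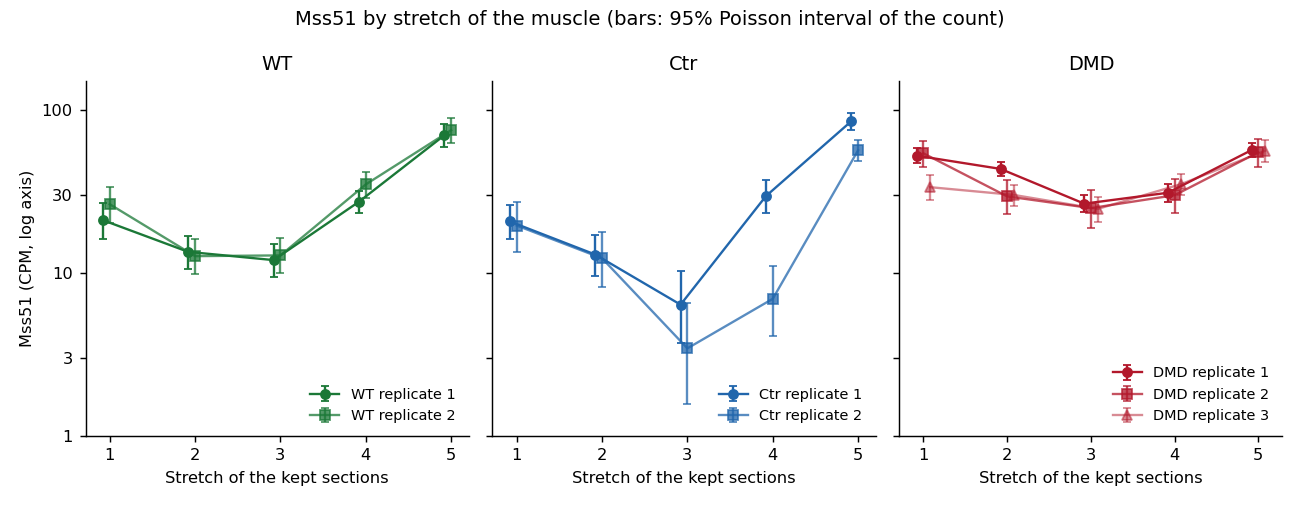
Mss51 in CPM on a log axis against the stretch of the kept sections, 1 line per muscle, with 95% Poisson intervals of the count. The middle stretch is at 3.44 to 12.8 CPM in WT and Ctr and at 24.6 to 26.5 CPM in DMD, and the last stretches lie between 54.8 and 85.01 CPM.

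The highest stretch exceeded the lowest 5.83-fold and 5.93-fold in WT, 13.3-fold and 16.4-fold in Ctr, with DMD at 2.13-fold, 2.20-fold and 2.27-fold. The groups did not overlap, and the 3 DMD muscles lay close together. On the log2 scale the last stretch stood above the middle stretch by 2.54 and 2.55 in WT, 3.74 and 4.04 in Ctr, with DMD at 1.09, 1.14 and 1.19. Of 2725 genes with a mean of at least 20 CPM, 3.52% had all 4 WT and Ctr muscles above all 3 DMD muscles in this difference (computed after adding 1 CPM), and 3.60% rose from middle to last in all 7 muscles. Since Mss51 was chosen for its profile, nothing is read from these shares. Among the same genes Mss51 had the largest mean rise from the middle to the last stretch both in WT and Ctr (log2 3.04, median of all genes 0.05) and in DMD (log2 1.11, median 0.10). After it came Ankrd1, Tmem100, Col1a1 and Car3 in WT and Ctr, and Tmem100, Thbs4 and Myod1 in DMD. Ankrd1 reached 20 CPM only through DMD. Its middle stretches in Ctr, at 0.375 and 0.764 CPM, were near the floor, so its rank is not read.

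The first end behaved otherwise. The first stretch stood above the middle by 0.81 and 1.04 (log2) in WT, 1.70 and 2.503 in Ctr, with DMD at 0.98, 1.12 and 0.44, so here the groups overlapped. A first stretch above the middle in all 7 muscles was shared with 0.587% of the genes. The last stretch stood above the first by 1.51 to 2.04 (log2) in the WT and Ctr muscles and by 0.11, 0.02 and 0.74 in DMD. The WT and Ctr profiles were therefore lopsided towards the last end, and those of DMD replicates 1 and 2 were near even.

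Which stretch sets the groups apart depended on the scaling, while the ratios inside a muscle did not. As a share of the counts, DMD was above all WT and Ctr muscles in the middle stretch (24.6 to 26.5 against 3.44 to 12.8 CPM), as were 22.4% of genes, and in the first (33.5 to 54.0 against 19.5 to 26.3 CPM), as were 21.7%. In the last stretch the groups overlapped on that scale. After division by edgeR's TMM factors, a step added after the data were seen, which correct for a shifted composition (0.669 and 0.804 in WT, 0.962 and 1.04 in Ctr, 0.983 to 1.41 in DMD), the first and middle stretches overlapped, the middle ones at 3.58 to 19.1 CPM in WT and Ctr and 18.6 to 25.04 CPM in DMD. In the last stretch DMD then lay below all others, at 40.1, 40.9 and 56.9 CPM against 58.6 to 112 CPM, as did 18.3% of genes. Only the second stretch separated the groups on both scales, with DMD higher. It read 29.4 to 43.4 against 12.3 to 13.4 CPM unscaled, as in 24.3% of genes, and 21.9 to 30.8 against 12.4 to 18.9 CPM scaled, as in 7.63%.

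Section by section the same picture held. The coefficient of variation over sections was 86.8% and 96.0% in WT, 110% and 146% in Ctr, with DMD at 38.6%, 80.4% and 41.1%. The variance over sections was 6.33 to 8.41 times that of counting alone in WT and Ctr and 2.07 to 3.61 times in DMD. Neighbouring sections correlated at 0.554 to 0.804 in WT and Ctr and at 0.298 to 0.416 in DMD, a description over 50 to 67 sections of shared library and depth. Mss51 was higher in sections with smaller totals, with correlations from -0.139 to -0.471 over the 7 muscles. The share of all counts that fell in the last stretch was 9.62% and 8.84% for the WT muscles, and 19.6% and 24.4% for the Ctr muscles. The part of depth in the profile was not tested.

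Markers of other cells also changed along the section order. All 8 tendon genes of the fixed list were in the tables. Their summed level rose from the middle to the last stretch in every muscle, 3.15-fold to 8.01-fold in WT and Ctr and 2.99-fold to 4.77-fold in DMD, with Mkx at 0 in Ctr replicate 2. In the last stretch they summed to 110 and 97.2 CPM in WT, 15.4 and 27.5 CPM in Ctr, with DMD at 53.5, 78.1 and 83.8 CPM. In the first stretch they summed to 18.7 and 18.1 CPM in WT, 2.74 and 12.04 CPM in Ctr, with DMD at 53.9, 73.8 and 17.0 CPM. Near even ends in DMD replicates 1 and 2 were thus not particular to Mss51. The 8 Schwann cell genes, which insulate nerve fibres, fell from the middle to the last stretch to 0.177 to 0.276 of their level in WT and Ctr and to 0.459 to 0.654 in DMD. Macrophage genes (14 of 14 measured) stayed at 57.8 to 120 CPM in the last stretch of WT and Ctr and were at 257 to 3844 CPM in DMD, highest in replicate 1. The part of these cells in the Mss51 profile was not tested.

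Over the whole muscle Mss51 did not pass in any comparison between groups. As a share of all counts it was 23.1 and 24.3 CPM in WT, 30.4 and 21.0 CPM in Ctr, with DMD at 40.5, 37.7 and 33.6 CPM. On this scale every DMD muscle lay above every other, as did 24.9% of the 2725 genes. After TMM scaling it was 28.8 and 36.3 CPM in WT (mean 32.5 ± 5.28, SD, n = 2), 29.2 and 21.9 CPM in Ctr (25.6 ± 5.204, n = 2), and 28.7, 28.1 and 34.2 CPM in DMD (30.4 ± 3.33, n = 3). The scaled groups overlapped.

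In edgeR's quasi-likelihood test over 13746 genes the log2 difference of Mss51 was 0.25 ± 0.21 for DMD against Ctr (95% interval -0.23 to 0.72, Benjamini-Hochberg adjusted p = 0.469). It was -0.10 ± 0.21 for DMD against WT (-0.57 to 0.37, adjusted p = 0.782) and 0.34 ± 0.23 for WT against Ctr (-0.18 to 0.87, adjusted p = 0.473). The same test called 12.7% of genes for DMD against Ctr, 15.2% for DMD against WT and 0.364% for WT against Ctr. The sign of the difference from WT turned without WT replicate 2 (log2 0.07), and without Ctr replicate 1 the number of genes called for DMD against Ctr fell from 1740 to 56.

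**Figure D3:**
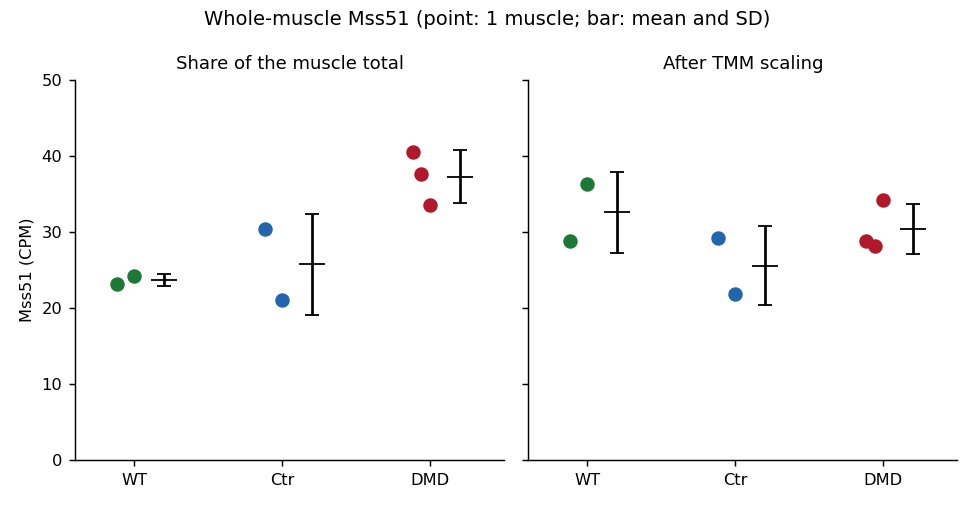
Whole-muscle Mss51 in CPM by group, as a share of the muscle total (left) and after TMM scaling (right). Points are muscles and bars are the mean and SD. DMD lies above the rest only on the left, at 33.6 to 40.5 CPM.

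The genes whose section profiles followed that of Mss51 were found inside each muscle, by the Pearson correlation over kept sections of log2 (CPM + 10). Of 2724 other genes with a mean of at least 20 CPM, 96 (3.52%) correlated positively in all 7 muscles and 79 (2.90%) negatively. The 12 with the highest and the 8 with the lowest median are named, and their correlations are descriptions over sections that share library, depth and composition. The lowest of the 12 had a median of 0.341 and the next gene outside, Slc44a2, 0.333, and on the other side Ankrd2 at -0.437 was inside and Gm28437 at -0.433 outside. In 19 of the 20, the median over the 4 WT and Ctr muscles was farther from 0 than the median over the 3 DMD muscles. Ankrd1 (0.411 and 0.459), low in WT and Ctr, was the exception. The choice by the median over 7 muscles, 4 of them WT or Ctr, favours such a pattern, so nothing is read from this count. Mss51 itself varied 2.07 to 3.61 times as much as counting alone in DMD, against 6.33 to 8.41 times in WT and Ctr. The part of that in the correlations was not tested.

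Car3, carbonic anhydrase 3, an abundant cytosolic enzyme of muscle and fat, was the closest. Its correlation was 0.735 and 0.749 in WT, 0.836 and 0.645 in Ctr, with DMD at 0.133, 0.527 and 0.457. From the middle to the last stretch it rose from 1746 to 3643 CPM in WT replicate 1, 1937 to 3198 in WT replicate 2, 1662 to 3937 in Ctr replicate 1 and 1345 to 3253 in Ctr replicate 2. In DMD the same step was 2753 to 2603, 1819 to 2271 and 2048 to 2544 CPM. The rise in WT and Ctr was thus larger than in any DMD muscle, and in DMD replicate 1 there was none.

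Tmem100, a small membrane protein known as a target of BMP signalling in endothelium, correlated at 0.774 and 0.586 in WT, 0.660 and 0.462 in Ctr, with DMD at 0.523, 0.0019 and 0.389. Its last stretch stood above the middle in DMD too, from 19.2 to 47.3, 22.4 to 49.0 and 40.4 to 78.5 CPM between the middle and the last stretch. In Ctr it rose from 134 to 302 and from 48.9 to 168 CPM. Cacng1, the gamma subunit of the muscle calcium channel at the triad, correlated at 0.435 to 0.725 in WT and Ctr and at 0.220, 0.500 and 0.325 in DMD. It stood at 955 and 846 CPM in the last stretch of Ctr against 528 and 539 CPM in the middle.

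The other followers belong to several functions. Tnnc2, the calcium-binding troponin of fast fibres, and Mylk4, a myosin light chain kinase, are genes of the contractile machinery, with medians of 0.393 and 0.341. Ankrd1 and Mustn1, stretch- and injury-responsive genes of muscle, had 0.415 and 0.388. Smyd2, a lysine methyltransferase that also carries a MYND domain, had 0.377. Amd2, a retrogene copy of the polyamine enzyme gene Amd1, so that reads may be split between both (0.454), Cbr2, a carbonyl reductase (0.431), Tecr, an enzyme of very long chain fatty acid synthesis (0.384), and Ttll7, a tubulin glutamylase (0.346), made up the rest. In DMD the median of these 9 genes ran from 0.014 for Amd2 to 0.459 for Ankrd1.

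The 8 genes that ran against Mss51 had several functions. Fabp3, the fatty acid carrier of heart and oxidative muscle, had a median correlation of -0.503, and Ckmt2, the mitochondrial creatine kinase, -0.456. Ckmt2 fell in WT from 999 and 891 CPM in the middle stretch to 733 and 650 in the last, in Ctr from 1053 and 1032 to 711 and 637, and in DMD from 521, 918 and 651 to 326, 773 and 540. Csrp3 and Ankrd2, a Z-disc protein and a stretch-responsive protein enriched in slow fibres, had -0.444 and -0.437. Actc1, cardiac actin, which regenerating fibres also express, had -0.490 with a range of only -0.413 to -0.695 over the 7 muscles. The mitochondrial transfer RNA genes mt-Ti and mt-Tm had -0.516 and -0.469. Mbp, the myelin basic protein gene of Schwann cells, had -0.514, peaking in the second stretch in every muscle (28.2 to 69.2 CPM in WT and Ctr, 29.8 to 41.2 CPM in DMD).

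**Figure D4:**
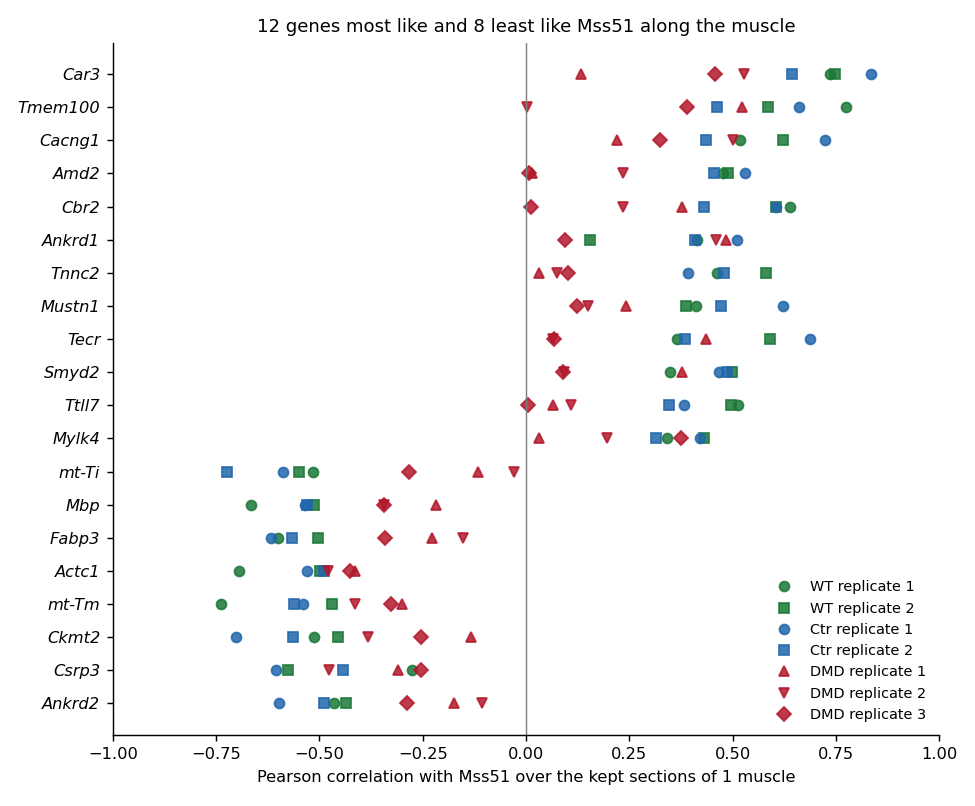
Pearson correlation of each named gene with Mss51 over the kept sections of 1 muscle (horizontal axis), 12 genes most like and 8 least like it by the median over 7 muscles. Each point is 1 muscle. The DMD points (red) lie mostly nearer to 0 than those of WT and Ctr, as for Car3 at 0.133 to 0.527 against 0.645 to 0.836. The choice by that median, most of whose muscles are WT or Ctr, favours this.

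The named set depended on the sections and on the slow change along the muscle; the cause was not tested. When a running mean over 9 sections was taken off every profile, none of the 12 or of the 8 was named again, and the highest median was 0.236. With all 506 sections of at least 1000 counts, 84 of them shallow, 1 of the 12 (Ankrd1) and none of the 8 was named again. Car3 had a median of 0.171 in the former and 0.311 in the latter.

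The whole-muscle levels of the named genes were compared as well. Naming them required a mean of at least 20 CPM over the 7 muscles, so their number of calls is not read as a result (12.7% of all genes were called for DMD against Ctr). In 2 of the 20 that mean came from some groups only, and these are given without a test. Ankrd1 reached it through DMD, at 8.48 and 13.6 CPM in WT, 5.01 and 6.14 CPM in Ctr, and 403, 148 and 67.2 CPM in DMD (unscaled). Ankrd2 reached it through WT and Ctr, at 28.6 to 59.1 CPM, against 18.1, 14.05 and 9.94 CPM in DMD. Among the followers with group means above 20 CPM, Mustn1 and Tmem100 passed by edgeR. Mustn1 was at 79.9 and 78.5 CPM in Ctr and 269, 329 and 236 CPM in DMD (scaled, log2 difference 1.81 ± 0.24, adjusted p = 0.004798). Tmem100 was at 165 and 90.0 CPM in Ctr and 19.98, 22.3 and 54.6 CPM in DMD (-1.98 ± 0.42, adjusted p = 0.0211). The Ctr and DMD muscles did not overlap for Mustn1 and Tmem100, but the test had already picked both genes, so nothing is read from this. Car3, the closest follower, differed by -0.12 ± 0.25 (adjusted p = 0.781).

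Among the genes with opposite profiles, Actc1, Fabp3, mt-Ti and mt-Tm passed. Actc1 rose from 152 ± 17.2 CPM in Ctr (SD, n = 2) to 523 ± 309 CPM in DMD (n = 3, log2 difference 1.78 ± 0.49, adjusted p = 0.0432). Fabp3 fell from 386 ± 125 to 148 ± 51.2 CPM (-1.38 ± 0.33, adjusted p = 0.0283), and mt-Ti and mt-Tm fell by 1.32 and 1.38 on the log2 scale (adjusted p = 0.0134 and 0.0264). None of these calls, followers included, was made without Ctr replicate 1. Without DMD replicate 1 those of Tmem100, Fabp3 and mt-Tm were lost, without DMD replicate 2 those of Tmem100 and Actc1, without Ctr replicate 2 those of Actc1 and mt-Tm, without either WT muscle that of Actc1, and in a fit of only these 2 groups those of Fabp3, Actc1 and mt-Tm. Against WT, where 15.2% of all genes were called, Actc1 (log2 2.05) was again higher in DMD and Fabp3 (-1.49), mt-Ti (-2.26) and mt-Tm (-1.84) again lower. Ckmt2 (-1.13), Csrp3 (-2.13), Amd2 (-1.59) and Tecr (-0.77) passed there as well, but only mt-Ti did so without WT replicate 2.

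In the kept sections fast fibre genes ran with Mss51 in WT and Ctr, with no such lean in DMD; the difference was not tested. All 18 genes of the fast glycolytic list had a mean of at least 20 CPM. In WT and Ctr 14 of 18 correlated positively with Mss51 in all 4 muscles and none negatively (18.1% and 9.91% of all genes), with a list median of 0.440 against 0.032 for all genes. In DMD 4 of 18 were positive in all 3 muscles and 1 negative (15.3% and 12% of all genes), with a median of -0.001 against 0.015. Mylpf, the fast regulatory light chain, correlated at 0.567 to 0.622 in WT and Ctr and at 0.032, 0.042 and -0.183 in DMD. Pvalb, the calcium buffer parvalbumin, had 0.496 to 0.627 and then -0.010, 0.100 and -0.068. Tnnt3, fast troponin T, had 0.416 to 0.480 and then -0.116, 0.140 and -0.004. With the running mean removed, alternatives added after the data were seen, the list medians were -0.014 and -0.023, and with all 506 sections 0.214 and 0.206, so that the gap between the groups was not seen there. The 4 members without one sign in WT and Ctr were Myh1, Pgam2, Atp2a1 and Pfkm. Myh1, the type 2X myosin, had -0.590, 0.135, -0.562 and -0.440, and Pgam2, a glycolytic mutase, -0.348, 0.282, 0.0094 and -0.245.

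The summed level of the fast list itself changed little along the muscle. Between the middle and the last stretch it rose 1.12-fold to 1.24-fold in WT and Ctr, and it changed 0.969-fold to 1.20-fold in DMD. No member was called between DMD and Ctr over the whole muscle by edgeR at an adjusted p of 0.05 (list median log2 -0.30). At an unadjusted p under 0.05 edgeR had 2 of the 18 higher and 2 lower, and DESeq2 called 2 lower after adjustment. Of all 13746 genes, 4240 were under that unadjusted p in either direction.

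Oxidative and slow fibre genes ran against Mss51 in the kept sections of all groups. Of 16 genes, 10 had a mean of at least 20 CPM. In WT and Ctr 9 of the 10 were negative in all 4 muscles, against 9.91% of all genes. In DMD 7 of the 10 were negative in all 3, against 12%. The list medians were -0.413 and -0.191, against 0.032 and 0.015 for all genes. Myh2, the type 2A myosin, had -0.424 to -0.663 in WT and Ctr and -0.185, -0.034 and -0.361 in DMD. With the running mean removed the medians were 0.005 and -0.062, and with all 506 sections -0.107 and 0.174, the sign in DMD being then the opposite. The summed list fell from the middle to the last stretch in every muscle, to 0.594 to 0.851 of the middle level in WT and Ctr and to 0.651 to 0.829 in DMD. Over the whole muscle 6 of 16 were lower and 1 higher in DMD than in Ctr (all genes 5.49% lower and 7.17% higher, list median log2 -1.02). Myh2 was among the lower, at 127 and 175 CPM in Ctr and 79.7, 53.9 and 53.5 CPM in DMD (log2 -1.27 ± 0.24, adjusted p = 0.0159), and without Ctr replicate 1 only 1 of the 16 was lower.

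**Figure D5:**
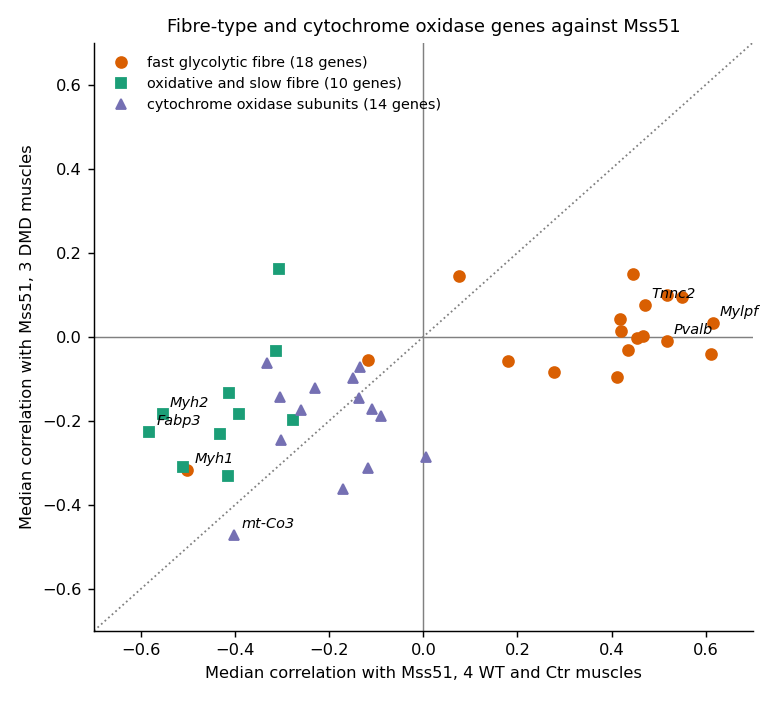
Median correlation with Mss51 over the 3 DMD muscles (vertical axis) against that over the 4 WT and Ctr muscles (horizontal axis), 1 point per gene with a mean of at least 20 CPM. The fast fibre genes lie to the right with list medians of 0.440 and -0.001, and the oxidative genes to the left with -0.413 and -0.191; the dotted line marks equal values.

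In the kept sections cytochrome oxidase subunit genes leaned against Mss51. Of 14 subunit genes, 8 were negative in all 4 WT and Ctr muscles (median -0.160), against 9.91% of all genes. In DMD 9 were negative in all 3 muscles (median -0.172), against 12% of all genes. With all 506 sections the medians were -0.014 and 0.247, so that the lean was gone in WT and Ctr and turned in DMD. Without mitochondrially encoded genes and their nuclear copies, the medians of the 11 subunit genes left were -0.297 and -0.150. Such genes and copies took 48.8% to 59.7% of the counts of a stretch in WT, 34.7% to 41.3% in Ctr and 27.6% to 44.3% in DMD. The part of that share in the correlations was not tested. The mitochondrially encoded mt-Co3, a core subunit, had the lowest median of the list at -0.432, and mt-Co2 had -0.295 and mt-Co1, the subunit whose translation the yeast protein starts, -0.265. Gm28437, a nuclear copy of mitochondrial sequence, can share reads with these genes. Of the 22 genes of oxidase assembly and mitochondrial translation, 8 were at 20 CPM or more, with a median of -0.026 in WT and Ctr. Between DMD and Ctr 1 of the 14 subunit genes and 2 of the 22 assembly genes were lower, near the 5.49% of all genes, and none was higher by edgeR or DESeq2. At an unadjusted p under 0.05 edgeR had 3 and 7 lower and none higher, with 4240 of all 13746 genes under it in either direction. Without Ctr replicate 1 no member of either list was called lower. The subunit call was also lost without either WT muscle, Ctr replicate 2 or DMD replicate 1.

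Of the 18 genes of oxidative regulation and fuel use, 10 had a mean of at least 20 CPM, with a median of -0.118 in WT and Ctr and -0.039 in DMD. In WT and Ctr 5 of the 10 were negative and 1 positive in all 4 muscles (9.91% and 18.1% of all genes). Lpl, lipoprotein lipase, which frees fatty acids for uptake, had the lowest median in WT and Ctr of all 2724 genes (-0.558 to -0.737) but 0.264, -0.083 and -0.230 in DMD. Over the whole muscle it was at 1971 and 1627 CPM in Ctr and 394, 666 and 440 CPM in DMD (log2 -1.85, adjusted p = 0.008111, edgeR). Of the 18 genes 11 were lower in DMD than in Ctr (5.49% of all genes) and none higher (7.17%), by DESeq2 or at an unadjusted p either. Without Ctr replicate 1 only 1 was lower, and without DMD replicate 1 it was 6. Hadha, an enzyme of fatty acid oxidation, fell by 0.91 on the log2 scale (adjusted p = 0.0253). Pdk4, the kinase that blocks entry of sugar carbon into mitochondria, reached 20 CPM through 1 muscle and is given without a test. It was at 318 CPM in Ctr replicate 1, 19.7 CPM in Ctr replicate 2, 13.2 and 22.1 CPM in WT and 4.03 to 21.4 CPM in DMD.

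The myostatin and TGF-beta list, of which 5 of 20 genes reached 20 CPM, leaned weakly towards Mss51 in WT and Ctr (median 0.172). In all 4 of these muscles 3 of the 5 were positive, against 18.1% of all genes. Of these 5, Ltbp4, which binds latent TGF-beta, ran the other way in 3 of the 4, with -0.222, -0.180, 0.0656 and -0.128. Fstl1, a secreted follistatin-like protein, had 0.211 to 0.413 there and 0.102, 0.162 and -0.180 in DMD, and Tgfb2, the second TGF-beta ligand, 0.029 to 0.177 in WT and Ctr. Between DMD and Ctr 1 of 19 tested genes of this list was lower and none higher by edgeR or DESeq2 (5.49% and 7.17% of all genes). At an unadjusted p under 0.05 edgeR had 4 higher and 2 lower, with 4240 of all 13746 genes under it in either direction. Of the 15 MYND-domain genes, 4 reached 20 CPM and only Smyd2 was positive in all 4 WT and Ctr muscles (18.1% of all genes). Myotendinous junction genes, active where fibres meet tendon, had a median of 0.188 in WT and Ctr and 0.233 in DMD over 5 of 9 genes, Ankrd1 and Thbs4 among them. Over the whole muscle 7 of these 9 were higher in DMD than in Ctr (7.17% of all genes) and none lower by edgeR, DESeq2 or an unadjusted p (5.49%), and without Ctr replicate 1 none was higher. The neighbours Anxa7 and Ppp3cb had medians of 0.229 and 0.106 over the 7 muscles, and the only other neighbour above 20 CPM within 100 kb, Mrps16, had -0.019.

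A choice made in one set of muscles could be read in the other. The 50 genes with the highest median correlation in the WT and Ctr muscles had a median of 0.067 in the DMD muscles (all genes 0.015), and 37 of 50 were positive there (74% against 55.0% of all genes). The 50 lowest had a median of -0.165 in DMD, and 42 of 50 were negative (84% against 45.0%). Each set was 50 of 2724 genes. Chosen instead in DMD, which was added after the data were seen, the 50 highest shared 7 genes with the first set (14% of each), among them Car3, Tmem100, Cacng1, Ankrd1 and Thbs4. The 50 lowest shared 14 (28% of each), among them Actc1, Mbp, Csrp3, Myoz2, H19 and mt-Co3. Gm28437 and Gm28438 were also among the 14, with WT and Ctr medians of -0.402 and -0.389, the same as mt-Co3 and mt-Nd3 to 3 digits. Such pairs can share reads, and genes that move together along the sections are not separate members, so these counts overstate the number of separate profiles.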

How the data were processed

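Sections of 7 tibialis anterior muscles were analysed from expected counts per gene and section. Per the submitters' processing notes the authors used STAR 2.7.7a and GRCm38, and per the file headers the deposited estimated counts came from featureCounts 2.0.1, by strand, with multi-mapped and overlapping reads shared in fractions; 20.049% to 25.959% of nonzero values were not whole. Column names mention trimming and deduplication, and the labels describe a molecular identifier and a section barcode. The 53083 genes of equal length in all tables were used, 92 spike-ins and 12 names of differing length left out. Sections with under 1000 counts or under 20% of the muscle's median were left out.

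Counts were summed over kept sections per muscle and rounded. All 3 groups were fitted together with edgeR 4.0.16 (quasi-likelihood test, TMM, low-count filter) in R 4.3.3, with Benjamini-Hochberg adjustment over 13746 genes and calls at 0.05. Section profiles were computed with Python 3.11.15, numpy 2.4.6 and pandas 2.3.3. DESeq2 1.42.0, other filters, pseudocounts, section choices, a replicate block and leaving out each muscle were the alternatives. The procedures were tested on simulated data.

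Mss51 and the lists were chosen with earlier results of these data known. The text names the 12 highest and 8 lowest median correlations with 1 sign in all 7 muscles and a mean of at least 20 CPM, up to 3 members of each list by size of median correlation, and genes within 100 kb. Myh1, and the genes named beside Mss51 in rankings of stretches or in shared sets, were singled out after their values were seen. Intervals and depth limits cover counting error only.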

Additional observations from a re-analysis of the deposited data

Results flagged for a closer look

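The following genes were chosen after their values were seen, because their correlation with Mss51 over the kept sections had one sign in all 4 WT and Ctr muscles and the opposite sign in all 3 DMD muscles. The difference between the groups was not tested. Of 2724 genes, 42 (1.54%) went from positive to negative in this way and 16 (0.587%) from negative to positive. Over all genes 18.1% were positive in all 4 WT and Ctr muscles and 12% negative in all 3 DMD muscles. For the other direction these shares were 9.91% negative and 15.3% positive. Nothing is read from the 42 and the 16.

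Myl1, the fast myosin essential light chain, correlated at 0.603, 0.670, 0.611 and 0.420 in WT and Ctr and at -0.402, -0.153 and -0.0621 in DMD, a difference of medians of 0.7594. Its median level went from 11663 CPM in the middle stretch to 15768 CPM in the last in WT and Ctr, and from 16559 to 14908 CPM in DMD. Myoz1, a Z-disc protein of fast fibres, differed by 0.4864, and Pla2g7, a secreted phospholipase, by 0.4369. In the other direction Hspd1, the mitochondrial chaperonin, differed by -0.4525, the small heat-shock protein gene Cryab by -0.3422 and the kinase gene Taok1 by -0.3948. Cryab was near 0 in Ctr replicate 1 (-0.018) and in DMD replicate 3 (0.0043), so its change of sign is weak there.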

How the results depend on the processing

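Mss51 passed in none of the 14 alternatives of any comparison between groups, with log2 differences of 0.047 to 0.468 for DMD against Ctr. For DMD against WT the range on leaving out a muscle was -0.254 to 0.069, the sign turning without WT replicate 2. The number of genes called moved far more. Without a low-count filter it was 2999, 3208 and 860 for DMD against Ctr, DMD against WT and WT against Ctr, and the share of higher calls went from 56.6% to 65.6% and from 54.4% to 67.8% in the first 2. In fits of only the compared groups it was 683 for DMD against Ctr and 586 for WT against Ctr, and DESeq2 gave 460 for WT against Ctr. Leaving out a muscle gave 56 to 3425, 68 to 3595 and 2 to 513, lowest without Ctr replicate 1, WT replicate 2 and a WT replicate. Same-numbered muscles correlated at 0.00604 to 0.189 in their deviations, so the numbers were not taken as pairs; with a replicate block the counts were 3890, 4063 and 798, and Mss51 differed by 0.15, -0.19 and 0.35. The highest over the lowest stretch was 2.20 as the DMD median, 2.91 with 10 stretches and 2.10 as a mean of section values, and WT and Ctr stayed above DMD in these and the other section choices run. Of the 12 genes most like Mss51, 1 was named again with every section of at least 1000 counts, 6 without mitochondrial genes and 0 after removing the running mean; the cause was not tested. Depth limits the trough, which rests on 9 and 17 counts in Ctr.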

Other observations

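Hemoglobin genes stood beside Mss51 in the ranking by the mean rise of the first over the middle stretch. Among 2725 genes Mss51 ranked 5 in WT and Ctr and 2 in DMD, beside Hba-a1, Hba-a2, Hbb-bs and Hbb-bt, which carry oxygen in red cells. The means hide single muscles. The summed erythroid list read 5512 CPM in the first and 5635 CPM in the middle stretch of DMD replicate 2. In DMD replicate 3 it read 6780 CPM in the first and 8908 CPM in the last. Mss51 itself was highest in the last stretch in all 7 muscles. Over the kept sections 4 of 4 erythroid genes of at least 20 CPM correlated negatively with Mss51 in all 4 WT and Ctr muscles. Their median was -0.393, and 9.91% of all genes were negative in this way. In DMD none had one sign in all 3 muscles (median 0.091), against 15.3% of all genes positive and 12% negative.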
